A study of Mus musculus with 2 samples.

Results

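Cluster 5 is one of 12 groups of sorted mouse natural killer (NK) cells that the authors of the deposited count matrix numbered by expression. Its cells were taken by the authors' cluster number. Those whose hashtag, a DNA-barcoded antibody that records the origin of a cell, was classified to a single population were kept. Of 1028 cells in cluster 5, 796 were such single-tag cells, out of 7479 in the whole data set. The other 6683 single-tag cells, of the other 11 clusters, served as the comparison.

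The cells came from C57BL/6 mice that were 12 weeks old. The mice, except perhaps the naive ones, carried subcutaneous MC38 tumours, a transplanted colon carcinoma line. The mice ate ad libitum or went through a cyclic fasting diet, and the tag list names ad libitum, fasted and refed populations of spleen, bone marrow and tumour and a naive spleen population. Lineage-negative cells positive for NK1.1 and CD49b were sorted, hashtagged, pooled and run in 1 lane of a droplet-based single-cell instrument with unique molecular identifiers (UMIs). Not given in the sources used here are what naive stands for, whether the naive mice carried tumours, the hours of fasting and refeeding, the number of mice behind each population, and the methods of clustering and tag classification. With 1 hashtag each, a population counted as 1 sample. Differences therefore have no replicate check and no p-value, and every interval covers counting error only.

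NK cells are innate lymphocytes that kill stressed, infected or transformed cells by releasing perforin and granzymes and that secrete interferon-gamma and chemokines. In the mouse they mature from cells with CD27 towards cells with CD11b (Itgam) and KLRG1. With maturation they gain the transcription factors T-bet (Tbx21) and Zeb2, and S1PR5, a receptor that guides them out of the bone marrow, while TCF-1 (Tcf7), lymphotoxin beta (Ltb) and the interleukin-7 receptor (Il7r) decline. Glucocorticoids, the adrenal hormones released during fasting, act on lymphocytes through a nuclear receptor that switches on genes such as Tsc22d3 and Fkbp5.

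Cells were assigned to populations by hashtag oligonucleotides of 15 bases, and the tags of the 4 spleen populations, which held most of cluster 5, are shown because every comparison between feeding states rests on them.
Spleen, ad libitum, tag B0309: TGCCTATGAAACAAG
Spleen, fasted, tag B0307: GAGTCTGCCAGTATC
Spleen, refed, tag B0308: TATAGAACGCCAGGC
Spleen, naive, tag B0310: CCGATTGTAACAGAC
These 4 tags, all in capitals as the tag list gives them, differed from each other at 10 to 13 of the 15 positions over their 6 pairs. Over all 10 tags the fewest differences between a pair were 7.

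The matrix held 13118 cells, of which 33 had no class and 5606 (42.8% of the 13085 classified) were called doublets. In cluster 5 the authors' classification called 232 of the 1028 cells doublets, 22.6% (95% exact Clopper-Pearson interval 20.05 to 25.2), the lowest share of the 12 clusters, although the intervals of clusters 3 and 4 overlapped it. The 796 single-tag cells held 3511465 UMIs. In the spleen their median ran from 3382 UMIs per cell in the fasted to 4189.5 in the refed population, against 3471 to 4466 in the other clusters. Ribosomal protein genes took 20.3 to 21.1% of the UMIs of cluster 5 in the spleen populations against 23.6 to 25.5% in the other clusters, and mitochondrial genes 2.54 to 2.86% against 3.02 to 3.37%.

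The markers of NK cells were present. All 10 genes of an NK cell list, which holds Ncr1, Klrb1c, Eomes, Prf1 and Gzma, were found in cluster 5. Their summed level was 35543 to 37209 CPM (UMIs scaled to a total of 1000000) in its 4 spleen populations against 27269 CPM in the other spleen cells. Over all tissues, clusters 3, 4 and 9 came near it with 32734, 34697 and 35032 CPM. Gzma alone made up most of the sum in cluster 5. Of 11 T cell markers, Cd4, Cd8a, Cd8b1 and Cd5 were at 0 in cluster 5, and the list summed to 614 CPM in the cluster (503 to 685 CPM over the spleen populations) against 698 CPM in the other spleen cells. Trbc1 and Trbc2, the constant genes of the T cell receptor beta chain, gave UMIs in 32.4% and 25.6% of cluster 5 spleen cells thinned to 1500 UMIs, and in 34.2% and 24.4% of the other spleen cells. The largest sum of the remaining lists was that of erythroid cells, 193 CPM against 227 CPM in the other spleen cells. ILC2, another innate lymphocyte, gave 75.5 against 73.4 CPM, fibroblasts or endothelium 31.3 against 33.5 CPM, and megakaryocytes or platelets 35.6 against 27.0 CPM. The sums were 76.6 CPM for B cells, 23.1 CPM for monocytes or macrophages, 10.5 CPM for dendritic cells, 42.7 CPM for neutrophils and 21.9 CPM for ILC1, a related tissue lymphocyte. The other spleen cells gave 92.7, 40.5, 40.4, 37.9 and 40.6 CPM for these 5 lists. The lists of basophils or mast cells, stem or progenitor cells and tumour epithelium summed to 0.854, 6.55 and 0.570 CPM in the cluster.

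Cluster 5 consisted mostly of spleen cells, a trait it shared with other clusters. The spleen gave 759 of its 796 cells, or 95.4%, beside 5489 of all 7479 single-tag cells. The spleen part was 97.8% in cluster 4, 92.7% in cluster 3 and 90.7% in cluster 1. Of the 5489 spleen cells, 13.8% were in cluster 5. The bone marrow gave 30 of 1048 cells, a share of 2.86%, and the tumour 7 of 942, a share of 0.743%. Both other tissues held far less of the cluster than the spleen did.

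Within the spleen the ad libitum population had 330 cluster 5 cells of 1804, a share of 18.3% (exact interval 16.5 to 20.2). The fasted population had 105 of 1391, 7.55% (6.22 to 9.06). The refed population had 218 of 1476, 14.8% (13.0 to 16.7), and the naive population 106 of 818, 13.0% (10.7 to 15.5). The fasted share was the lowest, and its interval did not overlap those of the other 3 spleen populations. In the bone marrow the cluster held 25 of 575 ad libitum cells (4.35%, 2.83 to 6.35), 5 of 337 refed cells (1.48%, 0.483 to 3.43) and 0 of 136 fasted cells, whose exact interval reached up to 2.68%. The refed interval overlapped those of both other bone marrow populations. In the tumour the cluster held 6 of 801 fasted cells (0.749%), 1 of 95 refed cells and 0 of 46 ad libitum cells, whose exact interval reached up to 7.71%. These shares describe where the authors' cluster fell, and since the cells were clustered on genes that also differed between feeding states, fewer cells of this kind and the same cells numbered otherwise cannot be told apart.

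**Figure D1:**
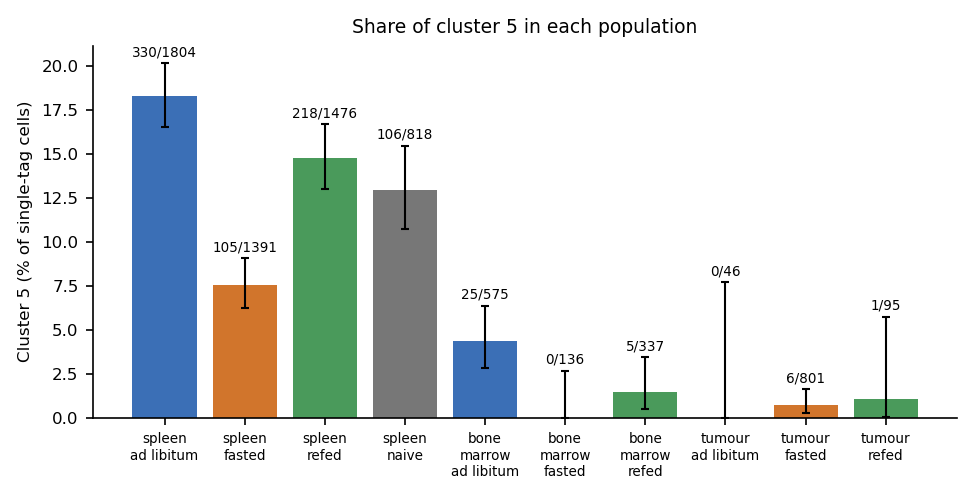
Share of cluster 5 among single-tag cells (y axis, %) in the 10 populations (x axis), with exact 95% intervals as error bars and cell counts above them. The ad libitum spleen bar is the highest at 18.3%, the fasted spleen bar stands at 7.55%, and all bone marrow and tumour bars are below 5%.

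Cluster 5 carried the profile of mature NK cells. Against all other clusters, pooled over populations, it held more of 11 of 12 genes of a mature NK list (median log2 ratio 0.71) and less of all 11 measured genes of an immature NK list (median -1.07), where the median over all 5427 measured genes was 0.09. A ratio is the log2 ratio of CPM + 5, and a gene was measured where either side had 20 CPM. Because the cluster was cut from these same genes, the ratios describe the cells and test nothing. A gene was past the fold at an absolute log2 ratio of 1 with at least 50 CPM on either side, which held for 49 of 2797 genes (1.75%), 5 higher and 44 lower.

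Of the 5 genes past the fold that were higher in cluster 5, 3 belonged to the mature list. Kcnj8, which encodes a subunit of an ATP-sensitive potassium channel, stood at 88.9 CPM against 32.9 CPM in the other clusters, a log2 ratio of 1.31 (1.14 to 1.47). Cma1, a chymase, a secreted serine protease, stood at 389 against 165 CPM (1.22, 1.13 to 1.30). Klrg1, an inhibitory receptor for cadherins, stood at 178 against 82.6 CPM (1.06, 0.94 to 1.18). S1pr5 was close to the fold with 164 against 82.6 CPM (0.95, 0.83 to 1.07). The other genes past the fold in this direction were Rac3, a small GTPase (65.2 against 25.6 CPM), and Gpc1, the cell surface proteoglycan glypican 1 (80.3 against 36.3 CPM). The member of the mature list that went the other way was Gzmb, the cell death protease granzyme B, at 1133 against 1445 CPM.

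The comparison with all clusters also contrasts a spleen cluster with tumour and bone marrow cells, so each spleen population was compared within itself. Counted in the order ad libitum, fasted, refed and naive, 10, 10, 12 and 11 of the 12 mature genes were higher in cluster 5 than in the other spleen cells, with medians of 0.29, 0.19, 0.40 and 0.31. The genes past the fold were 0.214%, 0.48%, 0.29% and 0.341% of those tested. The mature profile was thus present within every spleen population, at a smaller size than in the pooled comparison.

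In the same order, Cma1 was at 413, 432, 392 and 384 CPM in cluster 5 against 297, 299, 220 and 246 CPM in the other spleen cells. Klrg1 was at 208, 152, 174 and 161 CPM against 156, 119, 99.2 and 121 CPM. Kcnj8 was at 105, 91.6, 85.4 and 72.9 CPM against 61.1, 61.8, 40.4 and 50.3 CPM. For these 3 genes the cluster was the higher side in all 4 populations, although in the fasted population the interval of Klrg1 (-0.07 to 0.71) and in the naive population that of Kcnj8 (-0.04 to 1.00) reached across 0. S1pr5 stood at 178, 136, 176 and 170 CPM against 142, 133, 119 and 156 CPM, and only the ad libitum and refed intervals left out 0. Cx3cr1, the fractalkine receptor of the most mature NK cells, showed no such difference, with 62.6, 26.2, 33.3 and 33.1 CPM against 64.7, 26.0, 27.7 and 37.8 CPM.

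Genes of immature NK cells were low in cluster 5 in every spleen population. Of the measured members, 8 of 9, 10 of 10, 9 of 9 and 9 of 10 were lower in the cluster, with medians of -0.52, -0.50, -0.62 and -0.72. Ltb, a membrane-bound cytokine of the tumour necrosis factor family, was at 46.9, 52.3, 60.4 and 53.0 CPM against 120, 136, 130 and 162 CPM. Tcf7 was at 24.5, 20.9, 23.9 and 8.83 CPM against 47.3, 44.5, 48.7 and 69.2 CPM. Il7r was at 3.40, 7.85, 2.08 and 2.21 CPM against 15.4, 36.4, 14.4 and 19.8 CPM. In none of the 4 populations did the cluster reach the level of the other cells for any of these genes. Il7r in fasted and Tcf7 in naive cells counted as measured only through the other clusters, so the rule fixed their direction. Cd27 was at 63.3, 75.9, 67.7 and 59.6 CPM against 91.7, 115, 107 and 114 CPM, and Emb, an adhesion protein of the immunoglobulin superfamily, at 38.8, 81.1, 39.6 and 44.2 CPM against 76.2, 113, 102 and 77.9 CPM.

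**Figure D2:**
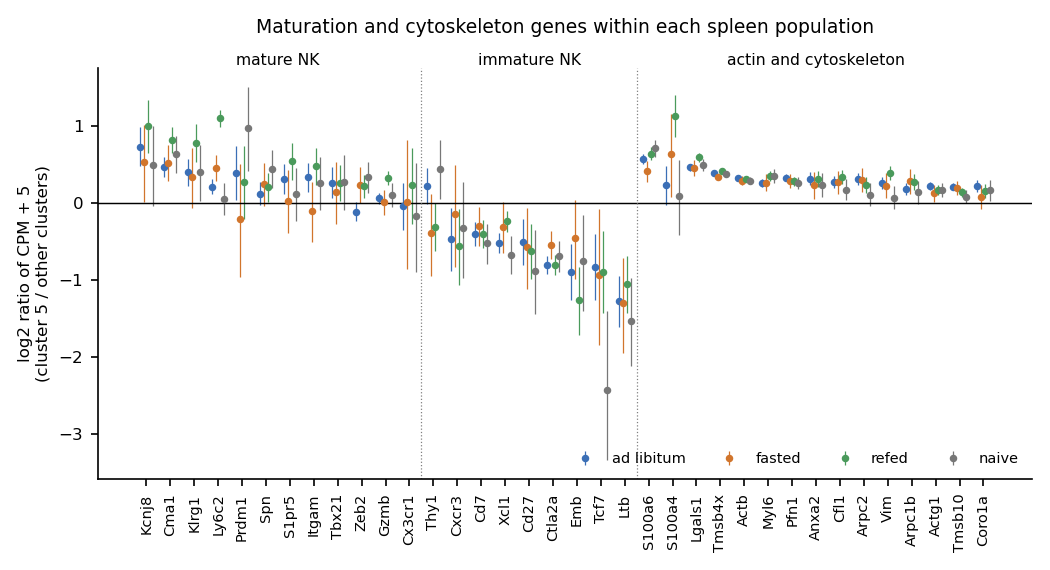
Log2 ratio of CPM + 5 between cluster 5 and the other clusters (y axis) for genes of the mature NK, immature NK and actin lists (x axis), within each of 4 spleen populations (colours), with intervals of counting error. Plotted are members measured in all 4 populations that reached 50 CPM in any of them. Most mature and all actin genes lie above 0, and Ltb, Tcf7 and Ctla2a lie below 0 in all 4 populations.

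Single cells were also counted by a UMI of Itgam or Cd27. After thinning to 1500 UMIs, Itgam without Cd27 was found in 165 of 745 cluster 5 spleen cells, 22.1% (19.2 to 25.3), and Cd27 without Itgam in 56, 7.52% (5.73 to 9.65). In the other spleen clusters the shares were 18.0% and 11.3% of 4374 cells. At full depth they were 37.8% and 11.3% in cluster 5 and 29.5% and 19.6% elsewhere, so the cluster leaned to Itgam at both depths. Neither gene was found in 69.0% of the thinned cluster 5 cells, which limits what such classes can say about one cell.

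On the mm10 build, with loci from GENCODE M21, 2 of these marker genes lie on chromosome 6, Klrg1 at chr6:122270596-122282882 and Kcnj8 at chr6:142564837-142571614. Cma1 lies at chr14:55941451-55944675 and S1pr5 at chr9:21242912-21248443. Gzma, the most abundant granzyme gene of the cluster, lies at chr13:113093825-113100981.

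Cluster 5 had the highest level of Gzma among the 12 clusters. Gzma stood at 21672, 20777, 20846 and 20681 CPM in the ad libitum, fasted, refed and naive spleen populations, against 15756, 14769, 13429 and 13279 CPM in the other spleen cells. Its level in the cluster hardly differed between feeding states and exceeded that of the other cells in each of them. Prf1, which encodes the pore-forming perforin, was at 469, 366, 391 and 459 CPM against 353, 306, 304 and 284 CPM. Gzmb, by contrast, was nearly level with the other spleen cells in the ad libitum population (1217 against 1166 CPM) and in the fasted population (872 against 863 CPM).

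Among activating and inhibitory NK receptors, 19 of 23 measured genes were higher in cluster 5 than in all other clusters, with a median of 0.37 beside 0.09 over all measured genes. Within the spleen populations, in the same order, 15 of 23, 19 of 24, 16 of 23 and 17 of 23 were higher, with medians of 0.12, 0.11, 0.15 and 0.15. The medians over all measured genes in these comparisons, given below, were also positive. The excess of the receptor list was therefore small, and smallest in the fasted population. Ncr1, the activating receptor NKp46, was at 1576, 1304, 1381 and 1478 CPM in the 4 spleen populations, against 1250, 1023, 1079 and 1207 CPM. Klra9, of the Ly49 receptor family, was at 773, 725, 714 and 654 CPM against 583, 513, 436 and 535 CPM. Both were higher in cluster 5 in every spleen population. Other members went the other way: Klra4 had ratios of -0.14, -0.24, -0.12 and -0.24 and Klra7 of -0.10, -0.15, -0.49 and -0.21, a pair named after their values were seen. Ly49 genes are near-identical copies of each other and the counting may have split reads between them, so the value of any one of them is uncertain.

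All 15 genes of the actin and cytoskeleton list were higher in cluster 5 in each spleen population, with medians of 0.27, 0.28, 0.32 and 0.17. Lgals1, the glycan-binding protein galectin 1, was at 3203, 2052, 3346 and 3054 CPM against 2321, 1497, 2219 and 2169 CPM. S100a6, a calcium-binding protein, was at 1605, 1249, 1429 and 1698 CPM against 1077, 935, 915 and 1036 CPM. Of 30 genes for subunits of the respiratory chain and ATP synthase, 27, 24, 26 and 28 were higher in the cluster, with medians of 0.20, 0.15, 0.20 and 0.18. The medians over all measured genes in the same comparisons were 0.05, 0.08, 0.06 and 0.05. The lower ribosomal protein share of the cluster, given above, raises the CPM of all other genes to some degree, and its part in these small ratios was not tested.

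Of the 44 genes past the fold that were lower in cluster 5 than in all other clusters, 5 were of the interferon-induced list and 4 of the immature list. The marker lists of neutrophils, monocytes or macrophages, and dendritic cells held 3, 2 and 2 of them. Cluster 10, part of the comparison, held 4243, 2906 and 1076 CPM of these lists. Its part in the pooled ratios was not tested. All 14 measured interferon-induced genes were lower, with a median of -1.50. Within the ad libitum, fasted, refed and naive spleen populations 7 of 9, 7 of 7, 8 of 8 and 5 of 7 were lower, with medians of -0.32, -0.22, -0.35 and -0.11, so most of the pooled size was not present inside the spleen. Cxcl10, a chemokine induced by interferon, stood at 8.83 against 149 CPM (-3.48), and Ly6a, the surface protein Sca-1, at 5.70 against 71.6 CPM (-2.84). Ly6a counted as measured only through the other clusters, so the rule fixed its direction. Plac8 stood at 42.4 against 271 CPM (-2.54) and Ltb at 57.0 against 188 CPM (-1.64). When only spleen cells were compared, 3 genes in place of 49 were past the fold. Vegfa, the vascular growth factor, and Hilpda, a lipid droplet protein induced by low oxygen, were also low in the cluster (12.5 against 58.8 CPM and 18.8 against 82.2 CPM).

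Clusters 3 and 4 had the summed profiles most like that of cluster 5, with Pearson correlations of 0.989 and 0.983 over genes at 50 CPM or more, given as a description over genes of 1 library. Cluster 1 followed closely with 0.983. Cluster 3 had 1173 single-tag cells and cluster 4 had 960.

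Clusters 5 and 3 differed little in the genes of maturation. Of the 12 mature genes, 8 were higher in cluster 5 with a median of 0.09, where all 5278 measured genes had a median of 0.13, and with trimmed-mean scaling the median of the list turned to -0.06. The genes past the fold were 10 of 2720 (0.368%), all higher in cluster 5, and with that scaling 8 were higher and 1 was lower. Of these 10, most belonged to dividing cells. Birc5, the survival and chromosome segregation protein survivin, stood at 74.3 against 17.8 CPM (1.80, 1.52 to 2.08), Mki67, a marker of cycling cells, at 53.5 against 12.5 CPM (1.74), and Ube2c, the ubiquitin ligase partner that ends mitosis, at 67.2 against 18.1 CPM (1.64).

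In cluster 5 a small number of cells held most UMIs of the mitosis list. Cells in which at least 3 of 11 mitosis genes were found made up 36 of 759 cluster 5 spleen cells, 4.74% (3.34 to 6.51), and held 69.5% of the UMIs of the mitosis list there. In cluster 3 such cells were as frequent, with 54 of 1087, but held 28.7% of the UMIs of the list. Without the cells of at least 3 mitosis genes on both sides, the median of the list against cluster 3 went from 1.41 to 0.08. In that setting 1 gene was past the fold. These cells were picked by the genes of the same list, so a move towards 0 was partly built in. It does not show that they alone made the difference. Top2a, a DNA topoisomerase of dividing cells, went from 1.29 to -0.24.

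Outside cell division, cluster 5 differed from cluster 3 mainly in a few genes. Kcnj8 was at 88.9 against 39.2 CPM (1.09, 0.86 to 1.32), and in the order ad libitum, fasted, refed and naive its ratio within the spleen populations was 0.98, 0.94, 1.79 and 0.76. Ly6c2, a surface protein of mature lymphocytes, had within-population ratios of 0.66, 0.75, 1.68 and 0.46. Ccl5, a chemokine stored at high levels in NK cells, was lower in cluster 5 at 17984 against 35014 CPM (-0.96), with ratios of -0.98, -0.87, -0.81 and -0.89. These directions held in all 4 spleen populations. Cx3cr1 was also lower in cluster 5, at 43.6 against 73.0 CPM (-0.68), although in the refed population its interval (-0.88 to 0.32) reached across 0. All 15 actin genes (median 0.19) and 27 of 30 respiratory chain genes (median 0.23) were higher in cluster 5, beside the median of 0.13 over all genes.

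Against cluster 4, cluster 5 held less of the mature genes and more of the immature genes. Of 12 measured mature genes 1 was higher in cluster 5 (median -0.30) and of 9 immature genes 7 were higher (median 0.42), with a median of -0.05 over all measured genes. Past the fold were 10 of 2924 genes (0.342%), 4 higher and 6 lower in cluster 5. Trimmed-mean scaling gave 7 higher and 5 lower, and totals without ribosomal protein and mitochondrial genes 8 and 6. Kcnj8 was here at 88.9 against 148 CPM (-0.71), Ly6c2 at 757 against 1250 CPM (-0.72) and Zeb2 at 418 against 656 CPM (-0.64).

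Thy1, a glycoprotein of the cell surface, gave the highest ratio against cluster 4, at 114 against 48.1 CPM (1.16, 0.93 to 1.40). Its ratios within the ad libitum, fasted, refed and naive spleen populations were 1.38, 1.14, 1.12 and 0.88. Cd160, a receptor of NK cells, was at 110 against 53.5 CPM (0.98). Both were higher in cluster 5 in all 4 populations, although for Cd160 the naive interval (-0.27 to 0.88) held 0.

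Lower than in cluster 4 were Malat1, a nuclear long noncoding RNA, at 24318 against 44896 CPM (-0.88), and Rgs1, a regulator of G protein signalling, at 201 against 415 CPM (-1.02). Malat1 was lower in every spleen population by nearly the same ratio, from -0.88 to -0.86. All 19 measured immediate early genes (median -0.38) and all 8 measured glucocorticoid genes (median -0.42) were lower in cluster 5 than in cluster 4. All 30 respiratory chain genes (median 0.22) and all 15 actin genes (median 0.25) were higher. Gzmf, granzyme F, had the lowest ratio, -3.00, which became 0.08 when the highest cell was left out, and Gzmc, granzyme C, went from -1.15 to -0.55 in the same way, so a single cell carried the first value.

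Feeding states were compared inside cluster 5 within the spleen, where each population had at least 50 cells. The 3 comparisons of ad libitum, fasted and refed cells share their cells with each other and are not independent. The fasted sum of 382048 UMIs is the smallest, against 1469789 in the ad libitum and 960682 in the refed cells, so its ratios have the widest intervals.

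In fasted cells of cluster 5, genes of a list of glucocorticoid targets were higher than in ad libitum cells. Members such as Dusp1, Pik3ip1 and Txnip are also on other lists used here, and whether glucocorticoids were the cause was not tested. All 10 measured members of the list were higher, with a median log2 ratio of 1.34, where 3065 of all 5746 measured genes were higher with a median of 0.03. In total 39 of 2977 genes (1.31%) were past the fold, 24 higher and 15 lower in fasted cells. Trimmed-mean scaling gave 17 higher and 25 lower, so the split between directions rests on the scaling. Outside the cluster 8 of 10 members were higher, with a median of 0.87, and 0.326% of 2763 genes were past the fold there.

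Cxcr4, the receptor for the chemokine CXCL12 that holds lymphocytes in the bone marrow, stood at 15.6 CPM in ad libitum, 86.4 in fasted, 11.4 in refed and 4.42 in naive cells of the cluster. The fasted value was the highest of the 4, and the fasted to ad libitum ratio was 2.15 (1.45 to 2.81). It rests on 33 UMIs in 25 fasted cells and 23 UMIs in 17 ad libitum cells. In the other spleen clusters the levels were 46.4, 71.9, 38.0 and 29.9 CPM, a ratio of 0.58 (0.38 to 0.78). The ratio inside the cluster exceeded that outside by 1.57 (0.86 to 2.28). Cluster 5 thus held less Cxcr4 than the other spleen cells in the ad libitum, refed and naive populations, while in the fasted population its level did not differ from theirs beyond counting error (0.25, -0.28 to 0.74). Differences between the ratios inside and outside the cluster left out 0 for 205 of 3072 genes. Intervals at a level of 95% can leave it out for nearly as many genes by counting error alone. The count is therefore not a result about the cluster.

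The other members of the list differed in how near the ratios inside and outside the cluster lay. Tsc22d3, which encodes the anti-inflammatory protein GILZ, was at 85.7, 249, 67.7 and 88.3 CPM in ad libitum, fasted, refed and naive cells, a fasted to ad libitum ratio of 1.48 (1.10 to 1.86) beside 1.28 outside. Fkbp5, a chaperone partner that dampens the glucocorticoid receptor, was at 32.0, 96.8, 42.7 and 42.0 CPM (1.46 beside 1.02). Txnip, an inhibitor of thioredoxin and of glucose uptake, was at 253, 592, 314 and 265 CPM (1.21 beside 1.19). In all 3 genes the fasted population was the highest of the 4. Pik3ip1, an inhibitor of phosphoinositide 3-kinase, was at 15.0, 65.4, 9.37 and 30.9 CPM (1.82 beside 1.89), and Klf9, a transcription factor, at 7.48, 34, 8.33 and 11 CPM (1.64 beside 0.64). For these 5 genes except Klf9, whose difference was not computed at its level, the intervals of the difference between inside and outside held 0. Dusp1, a phosphatase that switches off MAP kinases, was at 89.0 against 52.4 CPM in ad libitum cells (0.71), beside -0.09 outside, and the interval of its difference (0.21 to 1.40) left out 0. Of the remaining members Ddit4, Sgk1 and Per1 had ratios of 0.45, 0.43 and 0.59 inside, each with an interval that held 0.

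Sequence upstream of a start of 2 of these genes is shown because Cxcr4 and Tsc22d3 were higher together in fasted cells and both hold the half-site of the glucocorticoid receptor. The windows searched are the 250 bases before a RefSeq transcript start, here on the minus strand of GRCm38.p6, read 5′ to 3′. For Tsc22d3 the last 137 of these bases lie inside the gene as GENCODE M21 draws it, and only the 113 before it are printed. Capitals mark the match to AGAACA or its reverse complement TGTTCT.
Cxcr4, chr1:128592300-128592549: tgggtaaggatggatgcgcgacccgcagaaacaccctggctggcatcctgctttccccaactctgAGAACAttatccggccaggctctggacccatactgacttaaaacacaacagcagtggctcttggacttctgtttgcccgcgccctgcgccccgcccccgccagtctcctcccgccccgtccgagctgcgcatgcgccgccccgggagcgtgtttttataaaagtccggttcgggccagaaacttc
Tsc22d3, chrX:140600660-140600772: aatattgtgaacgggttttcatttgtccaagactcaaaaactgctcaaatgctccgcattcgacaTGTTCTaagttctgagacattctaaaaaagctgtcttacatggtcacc
Of the 12 genes of the list, 11 had a window, and 3 of these (Cxcr4, Sgk1 and Tsc22d3) held a match in at least 1 window. Over all genes 18.2% of 27025 did, so a match at this length is common and describes these letters only. The gene bodies lie at chr1:128588199-128592293 and chrX:140539528-140600659 on mm10.

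Cpt1a, the enzyme that admits long-chain fatty acids into mitochondria, was also highest in the fasted population. It stood at 11.6 CPM in ad libitum, 60.2 in fasted, 22.9 in refed and 15.5 in naive cells of cluster 5, a fasted to ad libitum ratio of 1.98 (1.18 to 2.72) beside 1.28 outside the cluster. The gene lies at chr19:3322334-3385733. Over the whole list of fatty acid oxidation, 11 of 14 measured members were higher (median 0.23), beside 7 of 12 outside (median 0.03). Cpt1a was the only member whose interval left out 0, and it counted as measured only through the fasted side. Rab27a, a GTPase that docks lytic granules, was at 27.9, 83.8, 43.7 and 30.9 CPM (1.43, and 0.76 in thinned cells). Other genes past the fold in fasted cells were Otud7b, a deubiquitinase (57.6 against 16.3 CPM), Csnk1g1, a casein kinase (81.1 against 28.6 CPM), and Dhrs3, a retinal reductase (57.6 against 19.7 CPM).

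**Figure D3:**
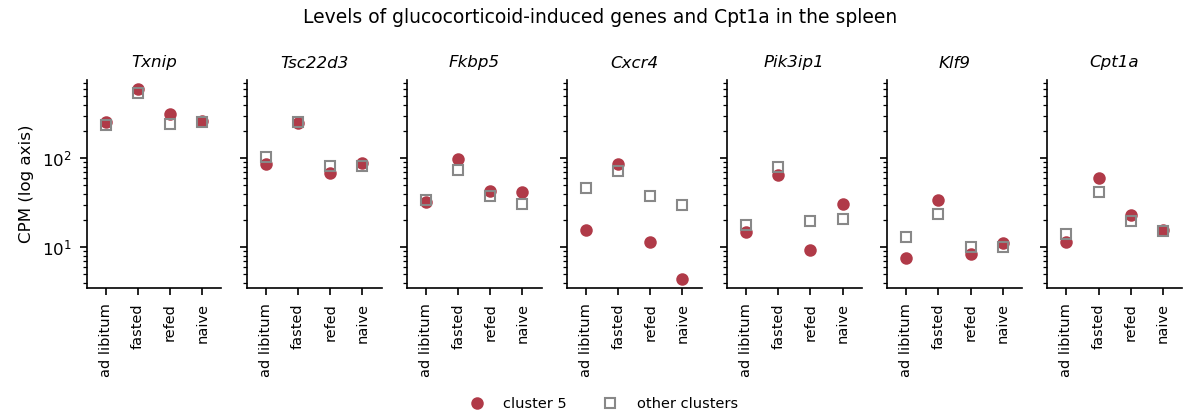
Levels (CPM, log axis) of 6 glucocorticoid-induced genes and Cpt1a in the 4 spleen populations (x axis), in cluster 5 (filled circles) and in the other clusters (open squares), without error bars. The fasted point is the highest in every panel, and in the Cxcr4 panel the cluster 5 points lie below the squares except in the fasted population.

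Actin and respiratory chain genes were lower in fasted cells of the cluster. All 15 actin genes (median -0.29, beside -0.22 outside) and 27 of 30 respiratory chain genes (median -0.21, beside -0.21) were below the ad libitum level. Of the other lists of metabolism and effector function, glycolysis had 7 of 13 members higher (median 0.02) and cytotoxic effectors 6 of 15 (median -0.10). Among cytokines and chemokines 5 of 8 were lower (median -0.44). Cx3cr1 was at 26.2 against 62.6 CPM in ad libitum cells (-1.12, -2.00 to -0.29), beside -1.17 in the other clusters. Ccl3, an inflammatory chemokine, was at 605 against 1078 CPM (-0.83, beside -0.68), and Xcl1, a chemokine that attracts dendritic cells, at 204 against 356 CPM (-0.79, beside -0.99). For the actin and respiratory chain lists and these 3 genes the ratios inside and outside the cluster were of about the same size. Among mature NK genes 3 of 12 were higher and the median was -0.27 (beside -0.08).

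Several of the lowest ratios in fasted cells belonged to genes of low level. Pank2, which starts the synthesis of coenzyme A, was at 18.3 against 59.9 CPM (-1.48), Gpd2, of the glycerol phosphate shuttle, at 18.3 against 52.4 CPM (-1.30), and Scd2, a fatty acid desaturase, at 20.9 against 57.8 CPM (-1.28). Zbp1, a sensor of nucleic acids induced by interferon, was at 39.3 against 101 CPM (-1.26), and Ptpn6, the phosphatase SHP-1 that acts behind inhibitory NK receptors, at 44.5 against 104 CPM (-1.14). All 7 measured interferon-induced genes were lower (median -0.43). Tia1, an RNA-binding protein, went from -1.38 to -0.25 in thinned cells.

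In refed cells the glucocorticoid list stood again below the fasted level. All 10 measured members were lower than in fasted cells, with a median of -1.03, beside -1.01 in the other clusters, where 0.435% of genes were past the fold, and -0.05 over all measured genes of the cluster. Here too Cxcr4, Pik3ip1 and Klf9 counted as measured only through the fasted side, so the rule fixed their direction. In total 50 of 2960 genes (1.69%) were past the fold, 14 higher and 36 lower, and with trimmed-mean scaling 22 and 29. Cxcr4 had a refed to fasted ratio of -2.47, Pik3ip1 of -2.29, Tsc22d3 of -1.80 and Cpt1a of -1.22, at the levels given above. Outside the cluster the ratio of Cxcr4 was -0.84, and the difference of the ratio inside from it was -1.64 (-2.46 to -0.81). Dhrs3 (-1.93), Otud7b (-1.28) and Csnk1g1 (-1.25) were also lower in refed than in fasted cells.

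Heat shock genes were higher in refed cells. All 10 measured heat shock genes were above the fasted level (median 0.68, beside 0.83 outside the cluster). Hsph1, a nucleotide exchange factor of HSP70, was at 33.3, 31.4, 92.6 and 55.2 CPM in ad libitum, fasted, refed and naive cells, a refed to fasted ratio of 1.42 (0.64 to 2.26). Stip1, which links HSP70 to HSP90, was at 89.8, 70.7, 176 and 106 CPM (1.26, 0.70 to 1.85). The refed value was the highest for both genes. Calr, the chaperone calreticulin, which is not on the list, was at 522 against 228 CPM in fasted cells (1.18).

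Further genes past the fold in refed cells included Styk1, a receptor-like kinase (95.8 against 28.8 CPM, 1.58), and Ptpn6 (129 against 44.5 CPM, 1.44). Xcl1 stood at 489 against 204 CPM (1.24, 0.90 to 1.60), beside 1.17 outside the cluster. Of the respiratory chain genes 28 of 30 were higher (median 0.20, beside 0.21) and of the actin genes 14 of 15 (median 0.26).

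**Figure D4:**
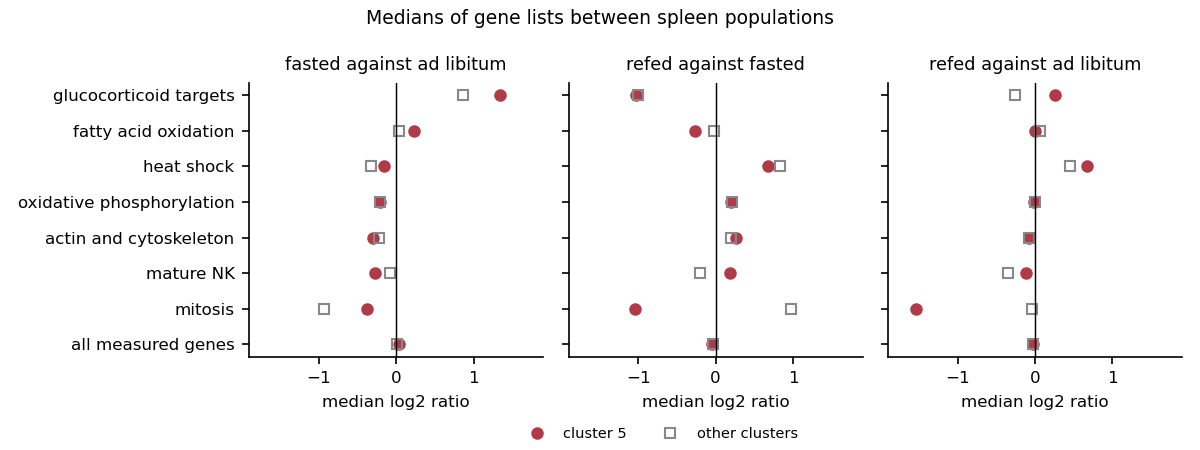
Median log2 ratio of CPM + 5 (x axis) of 8 gene sets (y axis) for fasted against ad libitum, refed against fasted and refed against ad libitum spleen cells (panels), in cluster 5 (filled circles) and in the other clusters (open squares). The glucocorticoid set lies at 1.34 and -1.03 in the first 2 panels, and the mitosis set of cluster 5 lies far from that of the other clusters where refed cells are compared.

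Against ad libitum cells, refed cells of cluster 5 showed heat shock genes higher and mitosis genes lower. Past the fold were 12 of 2840 genes (0.423%), 3 higher and 9 lower. All 10 heat shock genes were higher (median 0.67, beside 0.46 in the other clusters and -0.02 over all measured genes of the cluster). Hsph1 had a ratio of 1.35 (0.88 to 1.82), which exceeded that outside the cluster by 0.67 (0.15 to 1.18). Hsp90aa1, the stress-induced HSP90 gene, was at 787 against 490 CPM (0.68). Hspa1a and Hspa1b, the stress-induced HSP70 genes, were at 35.4 against 3.40 CPM and 45.8 against 4.76 CPM, and being near-identical copies they are uncertain one by one. Both counted as measured only through the refed side, so the rule fixed their direction within the list. Hsph1 lies at chr5:149614287-149636376.

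Glucocorticoid genes were close to the ad libitum level in refed cells. Of 6 measured members 5 were higher with a median of 0.26, which turned to -0.09 in thinned cells. Tsc22d3 was at 67.7 against 85.7 CPM (-0.32, -0.74 to 0.10). The immediate early genes Fos (228 against 129 CPM, 0.79) and Fosb (176 against 93.9 CPM, 0.87) were higher in refed cells. G0s2, an inhibitor of fat breakdown, was at 69.7 against 31.3 CPM (1.04). Ly6c2 was at 1002 against 720 CPM (0.47, 0.35 to 0.60), while outside the cluster it was at 466 against 621 CPM (-0.41, -0.48 to -0.34).

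All 10 measured mitosis genes were lower in refed than in ad libitum cells of the cluster, with a median of -1.54, beside -0.03 in the other clusters. Of these 10 genes, at least Ube2c and Mki67 counted as measured only through the ad libitum side, so the rule fixed their direction. Ube2c, at chr2:164769898-164778822, was at 95.3 CPM in ad libitum, 102 in fasted, 8.33 in refed and 37.5 in naive cells. In the other spleen clusters it was at 43.9, 20.7, 37.5 and 51.2 CPM. Mki67 was at 70.8, 34, 18.7 and 55.2 CPM in cluster 5, and Birc5 at 101, 81.1, 25 and 61.8 CPM. The refed population had the lowest level of all 3 genes in cluster 5, whereas in the other clusters the fasted population had the lowest.

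These levels rest on few cells. Cells with at least 3 mitosis genes were 22 of 330 in ad libitum (6.67%, exact interval 4.22 to 9.92), 6 of 105 in fasted (5.71%, 2.13 to 12.0), 3 of 218 in refed (1.38%, 0.285 to 3.97) and 5 of 106 in naive cells (4.72%). The refed interval did not overlap the ad libitum interval and did overlap the fasted one. In the other spleen clusters the shares were 7.19%, 3.58%, 7.07% and 6.04%. After thinning, 10 of 326, 2 of 102, 1 of 214 and 2 of 103 cluster 5 cells were counted, and the ad libitum (1.48 to 5.57%) and refed (0.012 to 2.58%) intervals overlapped, so at matched depth the shares of these 2 populations were not separated. The cells with at least 3 mitosis genes had a median of 7237.5 UMIs against 3925 in the rest, and the part of depth in their count was not tested beyond this thinning. When the cells with at least 3 mitosis genes were left out on both sides, the median of the list between refed and ad libitum cells was 0.02. Those cells were picked by the genes of this list, so a move towards 0 was partly built in. A single fasted cell held 46.2% of the Ube2c UMIs of that population.

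**Figure D5:**
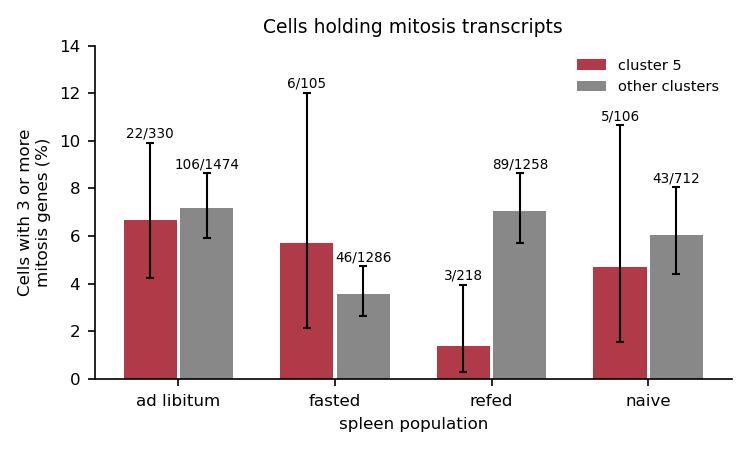
Share of cells in which at least 3 of 11 mitosis genes were found (y axis, %) in the 4 spleen populations (x axis), in cluster 5 and in the other clusters, with exact 95% intervals as error bars and cell counts above them. The refed bar of cluster 5 is the lowest at 1.38%, and among the other clusters the fasted bar is the lowest at 3.58%.

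Few genes separated ad libitum from naive cells of cluster 5. Past the fold were 14 of 2964 genes (0.472%), 11 higher and 3 lower in ad libitum cells, and 22 and 16 with totals that leave out ribosomal protein and mitochondrial genes. Of the mature list 9 of 12 genes were higher in ad libitum cells (median 0.13) and of the actin list 13 of 15 (median 0.12), where the median over all measured genes was -0.01. In the other clusters 11 of 12 mature genes were higher (median 0.24). Ly6c2 was at 720 CPM in ad libitum and 493 CPM in naive cells (0.54, 0.34 to 0.76), beside a ratio of 0.39 outside the cluster.

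All 10 measured mitosis genes were higher in ad libitum than in naive cells (median 0.60, beside -0.06 outside). The median was 0.11 without the cells that held at least 3 mitosis genes, a setting that picks cells by these same genes. Cks1b, a cell cycle kinase partner, was at 69.4 against 26.5 CPM (1.24). Ppil3, a peptidyl-prolyl isomerase of the spliceosome, gave the highest ratio of the genes named here, at 59.9 against 15.5 CPM (1.66, 0.76 to 2.58). G0s2 was lower in ad libitum cells, at 31.3 against 70.7 CPM (-1.06). Tcf7 stood at 24.5 against 8.83 CPM, with an interval that held 0 (-0.01 to 2.07).

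Too few cells of cluster 5 came from the bone marrow and the tumour for a ratio between tissues. The 25 ad libitum bone marrow cells held Gzma at 16032 CPM, Cma1 at 200 CPM, Klrg1 at 81.2 CPM and S1pr5 at 70.4 CPM, with Ltb at 152 CPM. In the ad libitum spleen the same genes of the cluster were at 21672, 413, 208, 178 and 46.9 CPM. The marrow cells therefore had less of the 4 mature or effector genes and more Ltb than the spleen cells, without a measure of error between samples. Of the 37 cluster 5 cells of bone marrow and tumour, 6 held at least 3 mitosis genes (16.2%, exact interval 6.19 to 32.0). These 6 had a median of 12304 UMIs against 4953 in the rest, and after thinning 1 of the 37 was counted (2.70%), beside 2.01% of the cluster 5 spleen cells.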

How the data were processed

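Per the labels' protocol the authors used seqc to make the deposited table, whose values are raw counts of UMIs. The submitters' processing notes name mm10. Cluster numbers, hashtag classes and the tag list are the authors' own. The table's 16800 gene columns carried 16789 symbols, repeated symbols were summed, and 16278 symbols matched GENCODE M21. Cells called doublets or without a class were left out.

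Counts were summed over the cells of a population and scaled to CPM (Python 3.11.15 with pandas 2.3.3, scipy 1.17.1 and numpy 2.4.6). A ratio is the log2 ratio of CPM + 5 with a 95% interval from the binomial distribution of the counts. Comparisons needed 50 cells on each side. Genes were named by a rule: the 12 highest and 12 lowest ratios at 50 CPM or more whose interval left out 0, up to 4 members per list, and a set of NK genes, of which 1 is not reported here. The cluster, the lists and the comparisons were chosen with earlier results of these data known. Alternatives were trimmed-mean (TMM) factors from edgeR 4.0.16, other totals, pseudocounts of 1 and 20 CPM, minimum levels of 20 and 100 CPM, at least 1000 UMIs, thinning to 1500 UMIs, means over cells, and cells or highest cells left out. Leaving out cells with at least 3 mitosis genes, or with markers of another type without the T cell list, was added after seeing the data. On simulated counts for fasted against ad libitum cells, over 2699 genes, the intervals held the true ratio in 95.1% and 99% of 2-fold changes were recovered. These counts were drawn independently from a Poisson distribution, as the interval assumes, so the result checks the calculation only. It does not cover real counts, where single cells can hold a large part of the UMIs of a gene. Figures were drawn with matplotlib 3.10.9.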

Additional observations from a re-analysis of the deposited data

Results flagged for a closer look

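In 9 cases a gene had ratios of opposite direction inside cluster 5 and in the other spleen clusters, each of at least 0.4 in log2 with an interval of counting error that left out 0. Each population is 1 sample, so no difference between inside and outside was tested against replicates. Ratios of opposite direction at any size with such intervals were found for 7 of 3072 genes in fasted against ad libitum, 23 of 3066 in refed against fasted and 18 of 2917 in refed against ad libitum cells, and for 13 of 3052 in ad libitum against naive cells, where none reached 0.4 on both sides.

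Of the 9 cases 2 were genes of the mitosis list, Ube2c and Birc5. Ube2c was lower in refed than in fasted cells of cluster 5 (-3.01) and higher outside it (0.73), a difference of -3.73. For Birc5 the ratios were -1.52 and 0.91, a difference of -2.43. Hist1h1b, a linker histone gene made during DNA replication, had ratios of -0.71 and 0.84, a difference of -1.55. One cell held 46.2% of the fasted Ube2c UMIs of the cluster, 38.7% of those of Birc5 and 45.9% of those of Hist1h1b, and without the highest cell the ratios inside were -2.42, -1.56 and -0.58.

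Ly6c2, a surface protein of mature lymphocytes, was higher in refed than in ad libitum cells inside the cluster (0.47) and lower outside (-0.41), a difference of 0.88 that rests on 963 and 1058 UMIs inside. S100a4, a calcium-binding protein, had ratios of 0.42 and -0.49, a difference of 0.90. One cell held 17.8% of its refed UMIs in the cluster, and without the highest cell the ratio inside was 0.27.

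In fasted against ad libitum cells Gzmc had ratios of 0.52 inside and -1.18 outside, a difference of 1.70, and 22.1% of the ad libitum UMIs outside came from 1 cell. Eif2b2, a subunit of the translation initiation factor eIF2B, had ratios of 0.93 and -0.40, a difference of 1.33, and in refed against fasted cells of -0.84 and 0.42, a difference of -1.26, over 20 fasted UMIs in the cluster. Dync1li1, a chain of the dynein motor, had refed to fasted ratios of 1.09 and -0.41, a difference of 1.503, over 10 fasted UMIs.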

How the results depend on the processing

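Of the values of single named genes, 1040 moved by less than their interval, 338 moved by more and 8 changed direction, and of the list medians 493, 64 and 9 did so. The cause of each move was not tested. For all other clusters the 49 genes past the fold became 81 with totals that leave out ribosomal protein and mitochondrial genes, 96 and 20 at minimum levels of 20 and 100 CPM, 7 without cells holding markers of another type and 13 when the T cell list was not used for this, 79 with doublets kept, 3 with equal weight of the populations and 3 in the spleen. For cluster 3 the 10 genes became 26 and 5 at those minimum levels, 3 without cells of other markers and 4 without the T cell list, 1 as a mean over cells, 2 in thinned cells, 1 without cells of at least 3 mitosis genes and 5 with doublets kept. For cluster 4 the 10 genes became 16 and 3 with pseudocounts of 1 and 20 CPM, 23 and 4 at minimum levels of 20 and 100 CPM, 3 without cells of other markers and 3 without the T cell list, 2 as a mean over cells and 4 in thinned cells.

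Between feeding states the settings are given in one order: the same other totals, a pseudocount of 20 CPM, minimum levels of 20 and 100 CPM, cells with other markers left out, the same without the T cell list, and thinned cells. The 39 genes of fasted against ad libitum cells became 92, 13, 190, 9, 340, 95 and 250, and the 50 of refed against fasted cells became 121, 19, 263, 14, 398, 111 and 283. The 14 of ad libitum against naive cells became 38, 3, 115, 0, 480, 71 and 211, and 25 both with a pseudocount of 1 CPM and as a mean over cells. The 12 of refed against ad libitum cells became 20 with the other totals, 46 and 3 at the minimum levels, 94 without cells of other markers, 59 in thinned cells, 7 as a mean over cells and 5 without cells of at least 3 mitosis genes. The 22 genes whose ratio inside cluster 5 differed from that outside by the fold became 34 as a mean over cells. The share of cluster 5 became 17.4% in refed spleen, 4.26% in refed bone marrow and 0% in refed tumour without cells of other markers, and 20.4% in ad libitum spleen when the T cell list was not used.

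Without the cells of at least 3 mitosis genes, the median of the mitosis list turned from -0.42 to 0.12 against all other clusters, from 0.84 to -0.076 against cluster 4, from -1.04 to 0.25 in refed against fasted and from -1.54 to 0.024 in refed against ad libitum cells. The cells left out were picked by the genes of this list, so such moves of its median and members were partly built in. Top2a turned to -0.24 against cluster 3, -0.10 against cluster 4 and 0.38 in refed against ad libitum cells, where Cenpf turned to 0.092, H2afx to 0.030 and Mki67 to 0.000253. The mitosis median against all other clusters also turned to 0.10 without cells of other markers (T cell list not used), 0.21 with equal weight and 0.33 in the spleen, and that of refed against fasted cells to 0.28 in the first of these. Against cluster 4, Gzmf turned to 0.081 without the highest cell and Gzmc to 0.043 without cells of other markers. The glucocorticoid median of refed against ad libitum cells turned to -0.086 in thinned cells. The median over all genes shifted by -0.12 against all other clusters with the other totals and by -0.13 against cluster 3 with TMM factors.

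Depth limits the fasted and naive cells most, with 105 and 106 cells, and genes below about 20 CPM there rest on few UMIs. At least 2 UMIs of the T cell, B cell, monocyte, neutrophil, erythroid or dendritic cell markers were found in 528 of the 796 cells (66.3%, beside 71.7% of all single-tag cells), and in 219 (27.5%, beside 38.1%) when the T cell list was not used. No paired analysis was possible because each population was 1 sample without a replicate number. Ratios between tissues were not run under any setting, since no population outside the spleen had 50 cells of the cluster.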
